A study of Mus musculus with 6 samples.

Results

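The 53 mitosis and spindle genes of a fixed list were followed in single cells of mouse esophageal organoids, out of 32285 genes in each deposited table. The members are fixed by name, with no threshold on a measured value, and all 53 names were found in the 6 tables. Organoids of C57BL6 epithelium were grown for 15 days in Matrigel with EGF, Noggin, R-Spondin and the ROCK inhibitor Y27632. They were founded by basal cells positive for integrin-b1 and negative for DAPI, sorted as Cyto-ID Low or as Cyto-ID High, where Cyto-ID is a dye for autophagic vesicles. There were 3 libraries of each sort, with the labels F2, M3 and F6 in both, and every library was 1 droplet run of dissociated, dead-cell-depleted organoids. The sort describes the founding cells and not the cells that were sequenced. The labels do not say whether the 3 libraries came from separate animals, so every p-value here measures only the spread between these libraries.

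Entry into mitosis is driven by cyclin B bound to Cdk1, and the Aurora and Polo-like kinases then build the spindle and correct its attachments. Unattached kinetochores hold back the anaphase-promoting complex through the Mad and Bub proteins, and its activator Cdc20 later lets it destroy securin and cyclin B. In stratified squamous epithelium such as the esophagus, dividing cells lie in the basal layer, and cells that move up turn on Krt13 and Krt4 and stop dividing. Many genes of this phase share promoter elements that bind the DREAM and MuvB complexes, among them the cell cycle genes homology region (CHR) and the CCAAT box of NF-Y.

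Promoter windows of RefSeq (GRCm38.p6, 250 bases before to 50 after the annotated start) were found for 46 of the 53 genes. The CHR letters TTTGAA, on either strand, stood in the window of 35 of the 46 genes (76.1%), against 20.2% of the 27025 genes in the table. CCAAT, on either strand, also stood in 35 of the 46 (76.1%), against 41.1% of all genes, and 31 genes held both (67.4% against 8.97%). Related genes also held them: CHR stood in 47.9% and CCAAT in 60.6% of 71 other mitosis genes, and CHR in 12.5% and CCAAT in 62.5% of 24 S phase genes. A CHR match within 50 bases of the start was found for 30 genes (65.2%), against 5.72% of all genes. The variant TTCGAA was found for 3 genes (6.52% against 1.80%). TTTGAA and CCAAT can share 1 letter where they abut. A match is a description of the letters alone, and the 7 genes with neither motif lack them only in this window. The windows below are those of 4 genes that were lower in cells with high Krt13 in the results that follow (Cdk1 at chr10:69352863-69353162, minus strand; Ccnb2 at chr9:70421505-70421804, minus strand; Cdc20 at chr4:118437294-118437593, minus strand; Plk1 at chr7:122159185-122159484, plus strand) and of 2 that were not lower there (Tubb4b at chr2:25224653-25224952, minus strand; Pttg1 at chr11:43425932-43426231, minus strand). Capitals mark CHR and CCAAT matches on either strand, and the Pttg1 window holds none. That window lies wholly inside the annotated Pttg1 gene (chr11:43420250-43426251, minus strand). The bases upstream of this annotated gene were not searched, so the window does not show whether they hold either motif. Letters and layer difference did not go together throughout: Birc5, Nusap1, Mad2l1, Tacc3, Nuf2 and Knstrn also hold neither motif and were lower in cells with high Krt13, and the Tubb4b window holds both.
Cdk1: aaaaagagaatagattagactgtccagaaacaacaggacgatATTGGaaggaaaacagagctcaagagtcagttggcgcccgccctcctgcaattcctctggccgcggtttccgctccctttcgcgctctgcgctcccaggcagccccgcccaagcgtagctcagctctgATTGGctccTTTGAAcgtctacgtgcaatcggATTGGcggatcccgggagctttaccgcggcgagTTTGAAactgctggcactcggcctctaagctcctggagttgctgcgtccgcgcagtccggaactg
Ccnb2: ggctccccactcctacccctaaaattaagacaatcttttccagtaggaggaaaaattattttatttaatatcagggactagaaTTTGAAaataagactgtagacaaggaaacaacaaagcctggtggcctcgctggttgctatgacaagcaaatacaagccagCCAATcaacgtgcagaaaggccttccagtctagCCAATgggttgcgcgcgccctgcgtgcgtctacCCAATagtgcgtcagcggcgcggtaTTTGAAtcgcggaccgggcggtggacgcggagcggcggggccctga
Cdc20: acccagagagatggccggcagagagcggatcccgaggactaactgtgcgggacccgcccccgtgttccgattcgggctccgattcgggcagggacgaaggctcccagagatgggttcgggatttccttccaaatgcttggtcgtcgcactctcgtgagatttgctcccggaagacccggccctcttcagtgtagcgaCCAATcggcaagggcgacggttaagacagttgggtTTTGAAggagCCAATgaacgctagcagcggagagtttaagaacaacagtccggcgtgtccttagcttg
Plk1: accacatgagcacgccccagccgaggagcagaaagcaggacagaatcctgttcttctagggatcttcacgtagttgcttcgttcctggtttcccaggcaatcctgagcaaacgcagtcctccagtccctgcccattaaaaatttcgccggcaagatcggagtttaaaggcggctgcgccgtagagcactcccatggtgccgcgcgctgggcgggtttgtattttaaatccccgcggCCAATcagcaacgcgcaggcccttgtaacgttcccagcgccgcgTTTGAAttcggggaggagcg
Tubb4b: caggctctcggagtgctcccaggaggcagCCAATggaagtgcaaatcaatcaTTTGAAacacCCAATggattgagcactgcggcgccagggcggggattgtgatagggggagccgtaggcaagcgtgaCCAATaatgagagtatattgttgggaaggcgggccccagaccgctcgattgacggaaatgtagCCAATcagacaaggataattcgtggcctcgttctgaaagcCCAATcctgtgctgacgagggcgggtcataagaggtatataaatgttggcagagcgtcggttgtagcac
Pttg1: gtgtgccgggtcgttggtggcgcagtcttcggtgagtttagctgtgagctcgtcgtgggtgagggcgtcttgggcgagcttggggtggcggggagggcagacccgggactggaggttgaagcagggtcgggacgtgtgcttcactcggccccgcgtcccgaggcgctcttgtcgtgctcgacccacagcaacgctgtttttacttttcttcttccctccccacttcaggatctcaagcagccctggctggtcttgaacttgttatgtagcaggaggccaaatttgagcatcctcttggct

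The deposited values are natural logs of each cell's UMIs scaled to 10000, from which whole UMIs were recovered. Of 26808 barcodes, 25154 had 500 or more non-zero genes and were kept, 2667 to 5617 per library, with median UMIs per kept cell from 1940.5 (High F6) to 10038 (High F2). In Low F2, M3 and F6 this kept 3547 of 3646, 5617 of 5749 and 2667 of 2855 barcodes. In High F2, M3 and F6 it kept 4356 of 4445, 4483 of 4891 and 4484 of 5222. A deposited Krt13 value of 3, about 1909 CPM (a cell's UMIs scaled to 1000000), split the cells into 15202 below it and 9952 at or above it. Between libraries, 67 barcode sequences occurred in 2 and none in more. Summed markers of immune, fibroblast, endothelial and neural crest cells were at 0 to 4.23 CPM in every library, and of muscle at 4.49 to 14.3 CPM, nearly all Acta2. Basal markers summed to 10689 to 20641 CPM and suprabasal markers to 5825 to 10926 CPM, far above the markers of other cell types. Superficial markers, led by Psca, summed to 9788 to 25942.5 CPM in Low and 3375 to 15450 CPM in High libraries. In every cell set below, fewer cells of a kind and less RNA per cell cannot be told apart from the mean CPM alone.

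The mean level of the 53 genes over kept cells ranged from 2.72 CPM (Cdca2, which helps load phosphatase onto chromosomes) to 275 CPM (Tubb4b, a beta-tubulin). The median gene stood at 12.0 CPM. The 3 highest were Tubb4b, Hmgb2 (205 CPM, a chromatin protein) and Ube2c, the ubiquitin carrier of the anaphase-promoting complex. The 3 lowest were Cdca2, the kinetochore protein Nuf2 (2.78 CPM) and the checkpoint kinase Ttk (2.80 CPM). Levels count 3' UMIs, which do not scale with transcript length, so the order is that of molecules counted. For 22 of the genes the annotation has another gene on the opposite strand (Fam166a for Tubb4b, Exosc9 for Ccna2, Elovl1 for Cdc20), and whether the counting used strand is not given in the sources used here. Near-identical tubulin genes could also share reads with Tubb4b.

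**Figure D1:**
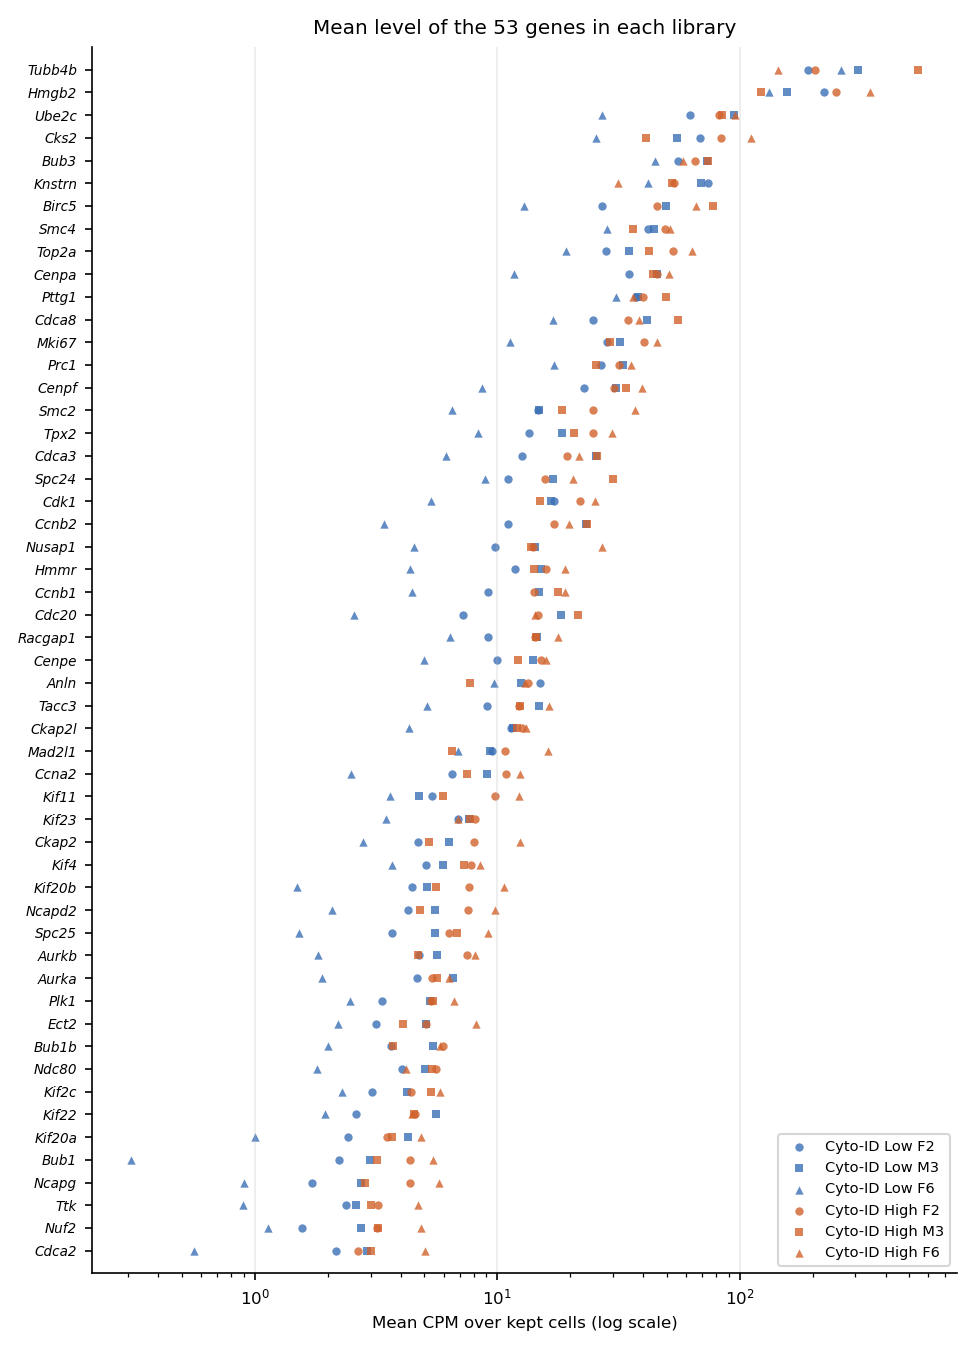
Mean CPM of each of the 53 genes over kept cells on a log axis, 1 point per library (blue Cyto-ID Low, orange Cyto-ID High; circles F2, squares M3, triangles F6). Low F6 is the lowest library for 48 genes and High F6 the highest for 37.

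When each cell was thinned to 1000 UMIs, most of the 53 genes were seen as a single UMI in few cells. Thinning holds depth equal in the cells it keeps. It left out 347 shallower cells, from 10 in High F2 to 115 in High M3, so which cells remain still depends on depth. UMIs per positive cell, averaged over libraries, had a median of 1.05 over the genes and stayed under 1.2 for 47 of them. The highest were Ube2c (1.38), Tubb4b (1.31), Birc5 (1.22), Hmgb2 (1.22), Cenpf (1.22) and Top2a (1.22). Top2a, which untangles chromosomes, was detected in 2.46%, 2.85% and 1.38% of cells of Low F2, M3 and F6. The shares in High F2, M3 and F6 were 4.10%, 3.34% and 5.21%. At this depth the UMIs in a positive cell lie near their floor of 1.

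Cells with several of the genes at once were uncommon. At 1000 UMIs, 11519 of 24807 cells had none of the 53, 7810 had 1, and 1749 (7.05%) had 5 or more, with at most 21. Around the cut of 5, 452 cells had 4, 393 had 5 and 334 had 6, so the cut takes a range and marks no cell type. Cells with 5 or more carried 1.25 to 1.52 times the median UMIs of the other cells of their library. Genes differed in how often their positive cells held 5 or more of the other 52. The mean over libraries was 77.4% for Ccnb1 (cyclin B1), 74.3% for Plk1, 71.8% for Cenpf and 71.2% for Nusap1. Next came Nuf2 at 71.1%, over the 5 libraries with positive cells, and Kif11 at 71.0%, the plus-end motor that separates spindle poles. Kif11 ran from 33.3% to 96.4% between libraries. The mean was 8.69% for Pttg1 (securin), 12.2% for Tubb4b, 13.1% for Knstrn, 15.6% for Bub3 and 19.0% for Hmgb2.

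**Figure D2:**
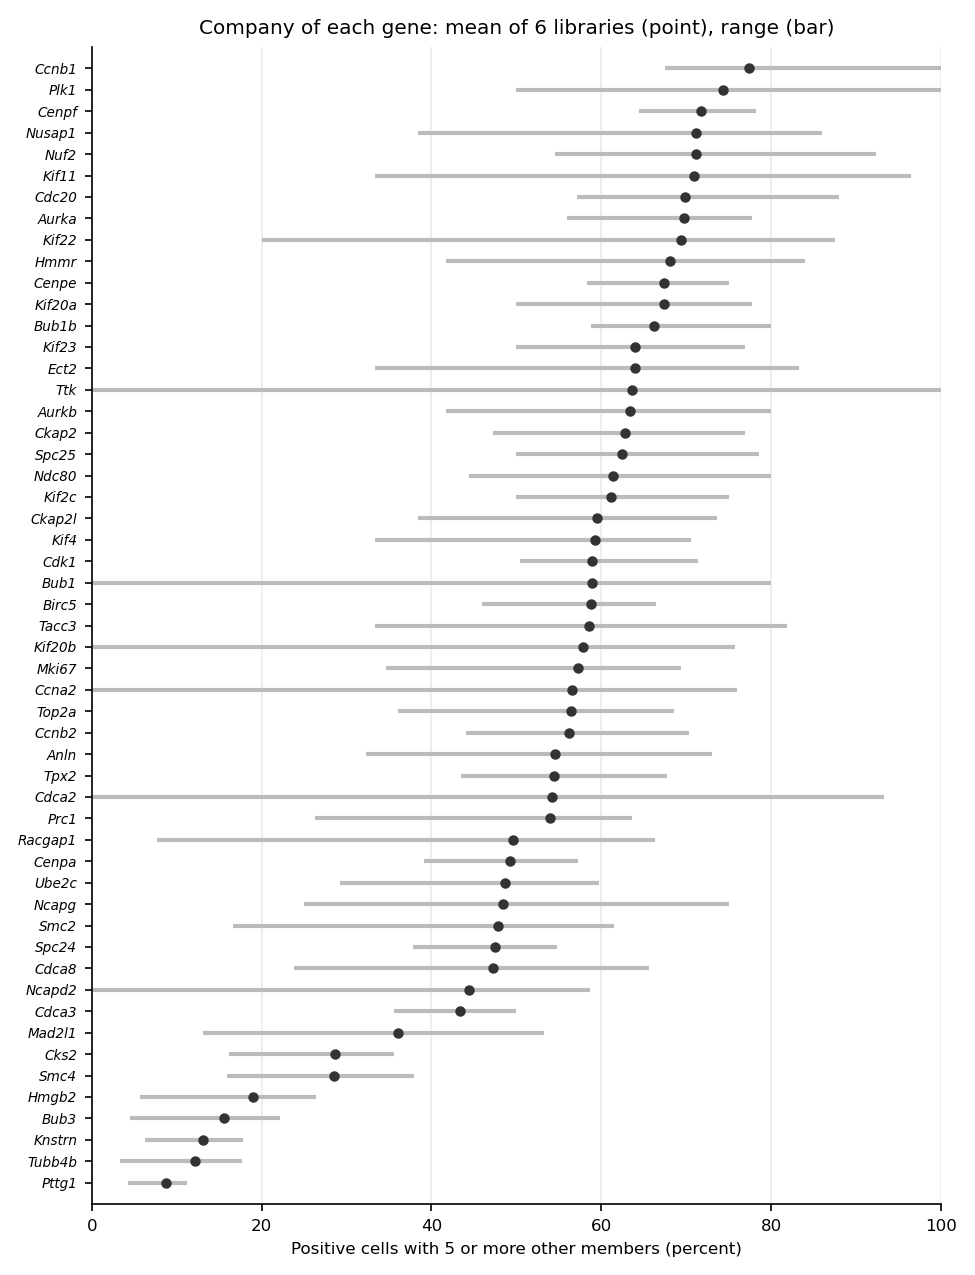
For each gene, the percent of its positive cells at 1000 UMIs that also had 5 or more of the other 52 genes. Points are means of 6 libraries (5 for Nuf2), and bars run from the lowest to the highest library. Ccnb1 stands highest at 77.4% and Pttg1 lowest at 8.69%. Bars are widest for genes seen in few cells.

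Cells with 3 or more of 6 superficial markers served as a layer that should not divide. None of these 1024 cells had 5 or more of the genes, which allows a share of up to 0.293% (3 cells, counting error only). They were as deep as the rest of their library or deeper in 5 of 6 libraries. Tubb4b had a UMI in 32.3% of them (mean of libraries), against 16.7% of cells with Krt13 below 3. Hmgb2 had one in 7.14%, Pttg1 in 3.42%, Bub3 in 2.51% and Knstrn in 1.75%. For Pttg1 the share in cells with Krt13 below 3 was 3.69%, close to the superficial share.

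The 2 layers were compared within each library. Mean CPM was lower in cells with Krt13 of 3 or more for 51 of the 53 genes and higher for 2, and all 53 passed at an adjusted p under 0.05. Ttk and Kif20a reached the filter of 1 CPM in 3 libraries through the lower layer alone, so their calls are no support, and 49 lower and 2 higher remain among the other 51. The test was limma on log2(CPM + 1) with the library as a block, over 12065 genes, of which 30.8% were called lower and 29.4% higher. These all-gene shares also count genes that passed the filter through 1 layer alone. The median log2 difference of the 53 was -1.21, against -0.04 over all genes tested. With plain CPM instead of TMM scaling, the all-gene median moved to -0.38, 20.7% of calls were higher in place of 48.9%, and the 53 genes' median was -1.54. The share of cells with a UMI at 1000 UMIs gave 48 lower and 1 higher among the 50 of 53 that passed the filter of 0.5% of cells in 3 libraries, where 50.1% of 9493 genes were called lower and 13.9% higher. Of those 50, 26 passed through the lower layer alone, Cdk1, Cdc20, Plk1 and Spc24 among them, and had to differ. Of the 24 that passed in both layers 22 were lower and 1 higher, and with no filter 50 of 53 were lower and 1 higher. The count with no filter takes the 26 back in. The all-gene shares of 50.1% and 13.9% hold for the whole filter and not for these 2 counts. The CPM printed for single libraries are plain values, whereas the log2 differences come from TMM-scaled log2(CPM + 1), which gives smaller folds for low genes. Krt13 itself defines the layers, and cells at or above the threshold were deeper. Their mean library medians were 6851 (Low) and 5502 (High) UMIs, against 4919 and 4507 below it. The part of depth in the mean CPM was not tested, and the thinned shares hold depth equal only in the cells kept.

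Mki67, the proliferation antigen Ki-67 that coats mitotic chromosomes, had the most negative fitted difference in mean CPM. Among genes that passed the share filter in both layers, it had the largest fall in share after Birc5 (-2.07). Its level was 43.1, 51.0 and 15.6 CPM in cells with Krt13 below 3 of Low F2, M3 and F6, and 51.8, 48.9 and 58.5 CPM in High F2, M3 and F6. At or above 3 it was 8.04, 9.22 and 5.73 CPM in Low, and 12.1, 9.83 and 10.95 CPM in High. The upper layer was lower in 6 of 6 libraries and the layers did not overlap. In plain CPM the lower layer was 2.72 to 5.53 times as high as the upper one. The fitted log2 difference was -1.71 ± 0.13 (SE, adjusted p = 2.5e-07). In the share of positive cells it fell by 2.06 ± 0.18 (adjusted p = 1.7e-08).

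Among cyclins, Cdk1 and its subunit Cks2, all 5 fell, with log2 differences from -1.52 (Cdk1) to -1.17 (Cks2). Cdk1 stood at 25.1, 24.8 and 8.40 CPM in the lower layer of Low F2, M3 and F6, and at 5.93, 6.66 and 1.32 CPM in their upper layer. In High F2, M3 and F6 it was 26.9, 24.5 and 32.3 CPM below the threshold and 9.74, 5.68 and 6.53 CPM above it. Cdk1 was lower in the upper layer in 6 of 6 libraries, by 2.76- to 6.35-fold in plain CPM (adjusted p = 3.0e-07 for the fitted difference). Ccnb1 fell by 1.21 ± 0.14.

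With Ttk set aside as above, all the others of the 9 kinases and partners fell, from -1.52 (Birc5, survivin) to -0.97 (Bub1). Plk1, whose kinase drives spindle assembly, changed by -1.20 ± 0.15, Aurka at the poles by -1.39 ± 0.16, Aurkb of the chromosomal passenger complex by -1.38 ± 0.15 and the checkpoint kinase Bub1b by -1.17 ± 0.26. With Kif20a set aside as above, the others of the 14 motor and spindle genes all fell except Tubb4b, with Kif11 at -1.45 ± 0.19. The 3 cytokinesis genes fell by 0.70 (Racgap1), 1.26 (Ect2) and 1.55 (Anln). The 8 genes of chromosome structure fell from -1.71 (Mki67) to -0.76 (Hmgb2), with Top2a at -1.55 ± 0.11 and the condensin subunit Smc2 at -1.59 ± 0.16. Kinetochore genes also fell in 8 of 8, between -1.66 (Spc24) and -0.24 (Knstrn). The call of Knstrn was lost with a Krt13 threshold of 4 (-0.08, adjusted p = 0.41). The fall in share of Spc24, a part of the Ndc80 complex, is not ranked, since it passed that filter through the lower layer alone.

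Of the 5 checkpoint and anaphase-promoting genes, 4 fell, Ube2c by 1.23 ± 0.07, Cdc20 by 1.10 ± 0.13, Mad2l1 by 0.50 ± 0.13 and Bub3 by 0.28 ± 0.07. Pttg1, the securin that is destroyed at anaphase, did not follow them. Its level below and at or above the threshold was 35.6 and 40.1 CPM in Low F2, 36.2 and 40.2 in Low M3, 34.3 and 26.5 in Low F6, 38.6 and 42.7 in High F2, 50.6 and 48.3 in High M3, and 36.9 and 34.3 in High F6. On the TMM scale it was 0.37 ± 0.09 higher in the upper layer (adjusted p = 0.0027), but with plain CPM the difference was -0.01 and not called (adjusted p = 0.91). The share of positive cells differed by -0.02 ± 0.13 (adjusted p = 0.92), a value that leaves either direction possible. Over 13 alternatives this difference in share ran from -0.11 to 0.30, kept its sign in 9 and was called in 1.

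Tubb4b ran the other way under both scalings. In Low F2, M3 and F6 its level was 132, 258 and 153 CPM below the threshold and 272, 366 and 402 CPM at or above it. In High F2, M3 and F6 the values were 176, 437 and 123 CPM below and 276, 644 and 201 CPM above. The upper layer was higher in 6 of 6 libraries, although libraries overlapped between layers. The log2 difference was 1.19 ± 0.11 (adjusted p = 1.5e-06), and the share of positive cells also rose, by 0.68 ± 0.08 on the log2 scale (adjusted p = 8.2e-07). Tubb4b is a general beta-tubulin used by many cells outside division.

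To separate how many cells carried a gene from how much of it they had, each gene was read in cells with 5 or more of the other 52 genes. Low F6 had 12 such cells in the upper layer, under the minimum of 20, so this fit used the other 5 libraries. There the median log2 difference of the 53 genes between layers was -0.24, against -0.28 over the 11809 genes tested. These cells were chosen by detection of the same set of genes, which limits how far their levels can differ between layers, so the level here is not set against the share. Tubb4b was the 1 gene of the 53 past the threshold in level, where 1.59% of all genes were called higher and 1.43% lower. In the 12 alternatives, Tubb4b was called higher in 5 and Mad2l1 in 3, while Mki67 was called lower in 5, Hmgb2 in 4 and 7 other genes in 1 each. It stood at 473, 864, 462, 1205 and 281 CPM in the lower layer of Low F2, Low M3, High F2, High M3 and High F6, and at 864, 1287, 747, 1163 and 331 CPM in the upper layer, higher in 4 of 5. The difference of 0.51 ± 0.13 (adjusted p = 0.046) was lost without Low F2 (adjusted p = 0.19), without Low M3 (0.18) or without High F2 (0.16). Mad2l1, which holds back anaphase, had the next smallest p (0.67 ± 0.17, adjusted p = 0.052), followed by Mki67 (-0.41 ± 0.12, adjusted p = 0.072). UMIs per positive cell at 1000 UMIs lay near their floor of 1 for most genes. Among the 2 with the most, Tubb4b had 1.24 in the lower and 1.38 in the upper layer, and Ube2c 1.42 and 1.23 (means of libraries, with no test).

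**Figure D3:**
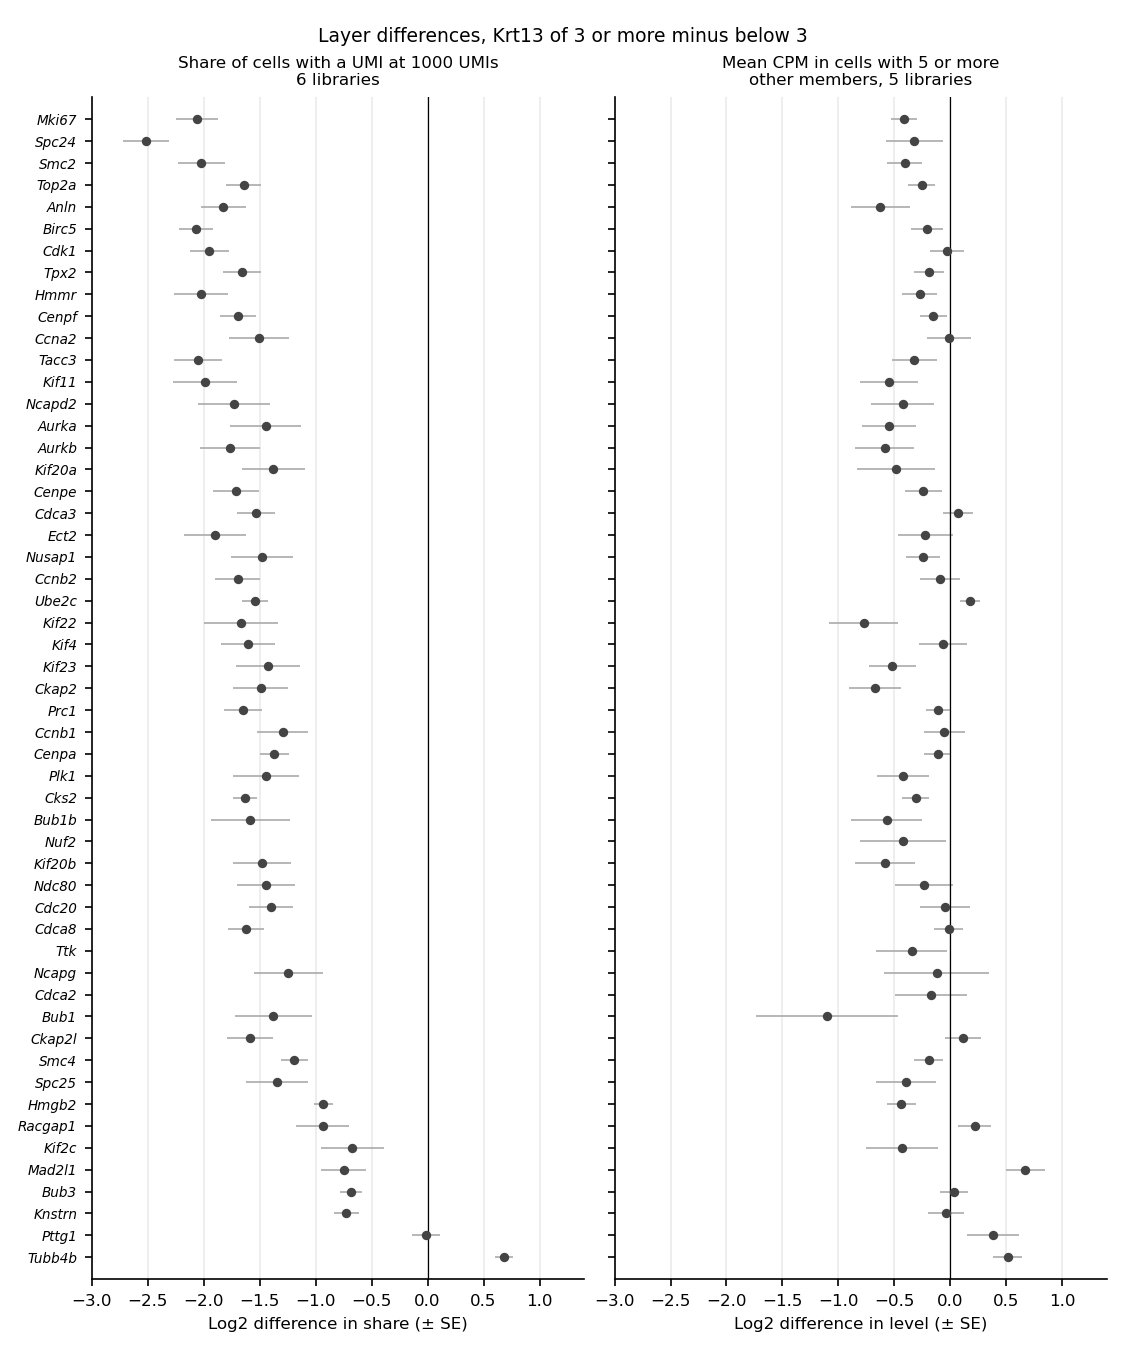
Log2 difference between layers (Krt13 of 3 or more minus below 3, ± SE) for each gene, in the share of cells with a UMI (left, 50 genes, 6 libraries) and in the mean CPM of cells with 5 or more of the other genes (right, 53 genes, 5 libraries), genes ordered by their difference in mean CPM over all cells. In share, all genes but Tubb4b lie at or left of 0, with Pttg1 at -0.02. Of those 50 genes, 26 passed the share filter through the lower layer alone. The panels use other cells and libraries and are not set against each other.

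Cells with 5 or more of the genes made up 6.53%, 10.5% and 3.28% of cells with Krt13 below 3 in Low F2, M3 and F6, and 10.2%, 12.7% and 13.6% in High F2, M3 and F6. At or above 3 the shares were 1.76%, 2.18% and 1.05% in Low and 2.53%, 2.91% and 3.00% in High. The ratio of the lower to the upper layer lay between 3.13 and 4.83 in the 6 libraries. In all there were 1523 such cells below the threshold and 226 at or above it. Those 226 had less Krt13 than the other cells of their layer in every library (3991 to 6362 CPM against 8017 to 12912 CPM). Their Krt4, another suprabasal keratin, was 60.1 to 820 CPM against 923 to 2033 CPM.

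The share did not fall steadily with Krt13. It was highest in cells with a Krt13 value above 0 and up to 2 in 6 of 6 libraries, at 7.76%, 13.3% and 4.05% in Low F2, M3 and F6 and 12.1%, 16.9% and 17.7% in High. Cells with no Krt13 UMI had 4.19%, 7.90% and 2.72% in Low and 8.48%, 13.1% and 14.0% in High. From a value of 5 upwards it was 0 of 239, 3 of 705 (0.426%), 0 of 321, 0 of 168, 3 of 699 (0.429%) and 0 of 195 cells in the order Low F2, M3, F6 and High F2, M3, F6. Cells with no Krt13 UMI had fewer UMIs than those above 0 and up to 2 in 6 of 6 libraries, and the part of this in the order of the first 2 classes was not tested. Cells with values of 2 to 3 also had fewer UMIs than that class in every library but Low F6 (medians of 1726 against 2296.5 in High F6). In a shallow cell a single Krt13 UMI already gives a value of 2 or more, so such cells cannot enter the peak class. Cells with 5 or more of the genes were deeper than the others, so the class edges can raise this share. The part of depth in the peak was not tested, and the peak is not read as a result about Krt13. In Low F6 the peak was 15 of 370 cells, against 12 of 322 with values of 2 to 3.

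**Figure D4:**
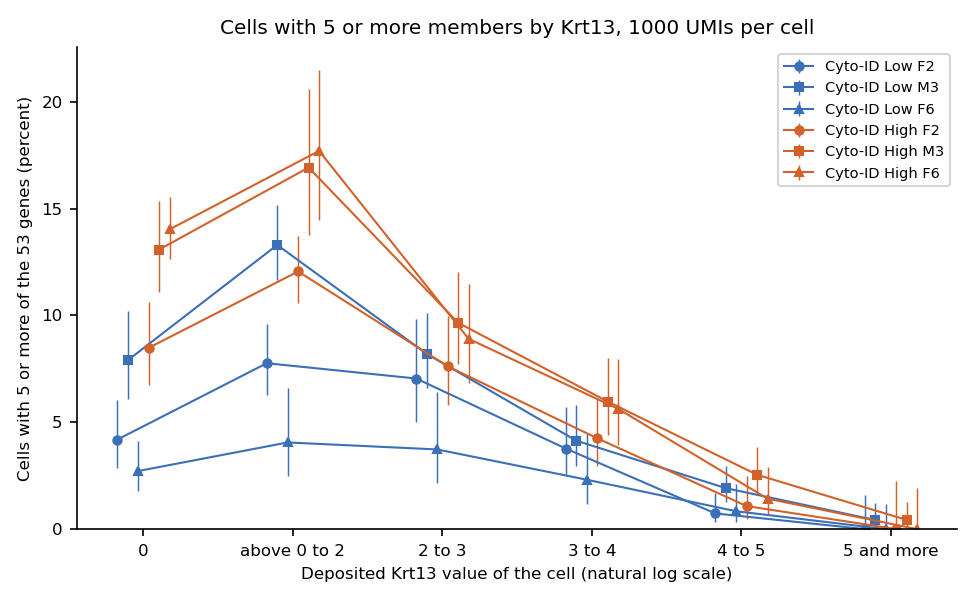
Percent of cells with 5 or more of the 53 genes (1000 UMIs per cell) by the deposited Krt13 value, 1 line per library, bars are 95% Wilson intervals that cover counting error only. Every library peaks in the class above 0 to 2, and none exceeds 0.429% at values of 5 and more. Shallow cells, where a single Krt13 UMI gives 2 or more, cannot enter the peak class.

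The founding populations were compared next, Cyto-ID High minus Low, as unpaired groups of 3 libraries. None of the 53 genes passed at an adjusted p under 0.05 in mean CPM over all cells, where limma called 14 of 11645 genes (0.12%), all higher in High. The smallest adjusted p among the 53 was 0.34, and 27 had an unadjusted p under 0.05, as had 933 of all genes tested. The values pointed mostly 1 way, with a higher mean in High for 51 of 53 genes and a median log2 difference of 0.76, against -0.02 over all genes. For 14 genes the 3 High libraries all stood above the 3 Low ones (4.48% of all genes tested): Top2a, Bub1, Plk1, Ttk, Kif2c, Kif4, Kif11, Kif20b, Tpx2, Ckap2l, Smc2, Ncapg, Spc25 and Nuf2. Low F6 was the lowest library for 48 of the 53 genes. Without it the median was 0.42 and 9 genes had an unadjusted p under 0.05, and without Low M3 the median was 1.00 with 42 such genes, still with none called.

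Top2a had the smallest unadjusted p. Its level was 28.1, 35.1 and 19.2 CPM in Low F2, M3 and F6 (SD 7.96, n = 3) and 53.2, 42.1 and 63.8 CPM in High F2, M3 and F6 (SD 10.9, n = 3), with no overlap. The log2 difference was 1.03 ± 0.25 (SE), unadjusted p = 0.0029 and adjusted p = 0.34. Kif11 stood at 5.36, 4.75 and 3.59 CPM against 9.81, 5.99 and 12.3 CPM, a difference of 0.93 ± 0.26 (adjusted p = 0.41). These 2 genes did not overlap between the groups, but their differences did not pass over all genes.

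Tpx2, which activates Aurora A, was at 13.5, 18.5 and 8.35 CPM in Low and 24.7, 20.7 and 29.8 CPM in High (0.98 ± 0.27, adjusted p = 0.43). The condensin genes Smc2 (14.7, 14.8 and 6.51 against 24.8, 18.4 and 37.0 CPM, 1.198 ± 0.33, adjusted p = 0.43) and Ncapg (1.72, 2.73 and 0.898 against 4.34, 2.84 and 5.74 CPM, 1.01 ± 0.30, adjusted p = 0.47) were next in order of p. Birc5 had the highest estimate, 1.30 ± 0.44, with 26.9, 49.7 and 12.8 CPM in Low and 45.5, 77.8 and 66.1 CPM in High, which overlap. In 28 of the 53 genes High M3 lay above Low M3, whereas High F2 lay above Low F2, and High F6 above Low F6, in 51. Cells with Krt13 of 3 or more made up 41.9%, 45.2% and 43.8% of kept cells in Low F2, M3 and F6. In High F2, M3 and F6 they made up 29.1%, 50.5% and 27.4%. The part of this make-up in the comparison over all cells was not tested.

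The other named regulators gave estimates of the same sign. Mki67 was at 28.4, 32.1 and 11.3 CPM in Low and 40.3, 29.2 and 45.5 CPM in High (0.84 ± 0.35), Cdk1 at 17.1, 16.6 and 5.30 against 21.9, 15.0 and 25.3 CPM (0.84 ± 0.38), and Cdc20 at 7.21, 18.3 and 2.55 against 14.7, 21.6 and 14.3 CPM (1.17 ± 0.51). All 3 overlapped between groups. Estimates were 0.98 ± 0.35 for Ccnb1, 0.64 ± 0.25 for Plk1, 0.75 ± 0.32 for Aurkb, 0.52 ± 0.32 for Aurka and 0.51 ± 0.28 for Bub1b, with adjusted p from 0.58 to 0.70. Hmgb2 (0.48 ± 0.36) and Tubb4b (0.11 ± 0.48) varied more among the High libraries, from 122 to 345 CPM and from 144 to 542 CPM, than between group means.

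Knstrn, a kinetochore and spindle protein, and Anln, a contractile ring protein, were the 2 genes with negative estimates. Knstrn was at 74.0, 69.0 and 41.9 CPM in Low F2, M3 and F6 and at 53.6, 52.5 and 31.4 CPM in High, lower in High for each of the 3 shared labels (-0.33 ± 0.28, adjusted p = 0.77). Anln was at 14.9, 12.5 and 9.70 against 13.3, 7.70 and 13.0 CPM (-0.06 ± 0.23, adjusted p = 0.96), and its sign turned in 3 alternatives.

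The same comparison was made within each layer. In cells with Krt13 below 3, none of the 53 passed (0.23% of 11730 genes did), and 51 had positive estimates with a median of 0.74. An unadjusted p under 0.05 was found for 20 (843 of all 11730 genes), and 12 did not overlap (4.01% of all genes). The 5 smallest p there belonged to Kif11 (8.14, 7.32 and 5.38 against 11.5, 11.1 and 15.7 CPM, 0.91 ± 0.24, adjusted p = 0.39), Top2a (0.98 ± 0.26), Tpx2, Smc2 and Ncapg. At or above 3, none of the 51 genes tested passed (0.206% of 11141 genes did), and 46 estimates were positive with a median of 0.43. An unadjusted p under 0.05 was found for 7 (851 of all 11141 genes), and 12 did not overlap (5.15% of all). Ttk and Kif20a were too low there to test. Ckap2, a microtubule protein of the spindle, had the smallest p in that layer, at 1.204, 1.73 and 0.877 CPM in Low F2, M3 and F6 and 3.99, 2.67 and 5.43 CPM in High (1.16 ± 0.30, adjusted p = 0.33), with no overlap. Top2a, Smc2, Birc5 and Tpx2 followed, with adjusted p from 0.49 to 0.64. In the test of the layer difference in High minus that in Low, none of the 53 was called (smallest adjusted p = 0.30 for Cenpf), where 0.232% of 12065 genes were called. An unadjusted p under 0.05 was found for 6, a rate close to that of all genes (1209 of 12065). Of the 53 estimates 47 were negative and 6 positive, with a median of -0.30 against -0.01 over all genes. Without Low M3, Tubb4b was called in that test (-0.73, adjusted p = 0.014).

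Splitting the comparison into share and level gave the following. For the share of cells with a UMI at 1000 UMIs, none of the 42 genes that passed the filter was called (0.168% of 8910 genes were). Of the estimates 40 were positive, with a median of 0.72 against -0.12 over all genes. An unadjusted p under 0.05 was found for 11 (680 of all 8910 genes), and 9 did not overlap (3.39% of all). Birc5 had the smallest p, in 2.10%, 3.89% and 1.42% of cells of Low F2, M3 and F6 and 3.77%, 5.59% and 5.85% of High (1.10 ± 0.35, adjusted p = 0.50), and overlapped. Without Low F6 none of the genes had an unadjusted p under 0.05 and the median was 0.31. In cells with 1000 or more non-zero genes the median was 1.01 over the 47 genes that passed the filter there. For the level in cells with 5 or more of the other genes, none of the 53 was called (0.0695% of 11504 genes were), 32 estimates were positive and 21 negative, and the median was 0.10 against 0.06 over all genes. These signs depended on the setting: with plain CPM 15 were positive and 38 negative (median -0.11, all genes -0.13), and without Low F6 14 were positive and 39 negative (median -0.16). Detection of the same set of genes chose these cells, which limits how far their levels can differ between groups. The level is therefore not set against the share.

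Anln and Knstrn had the smallest p in level. In cells with 5 or more other members Anln stood at 163, 122 and 151 CPM in Low F2, M3 and F6 and at 95.8, 65.8 and 59.8 CPM in High (-0.78 ± 0.24, unadjusted p = 0.0074, adjusted p = 0.58). Knstrn stood at 164, 182 and 150 against 105, 119 and 58.2 CPM (-0.66 ± 0.27, unadjusted p = 0.032, adjusted p = 0.73). Both groups were apart in these libraries, as they were for Plk1, Prc1, Ckap2 and Tacc3, all 6 lower in High, where 10.7% of all genes were, a share close to that of the 53. None of the 53 was apart in the other direction, as were 3.69% of all genes.

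Cells with 5 or more of the genes made up 4.53%, 6.76% and 2.30% of cells in Low F2, M3 and F6 (4.53 ± 2.23, SD, n = 3) and 7.98%, 7.72% and 10.7% in High F2, M3 and F6 (8.80 ± 1.65). With 8 or more of the genes the groups overlapped, at 2.24%, 3.86% and 0.766% against 3.75%, 3.41% and 3.47%, with Low M3 the highest library. Within the cells with 5 or more, UMIs of the 53 genes per 1000 were 9.77 ± 1.61 in Low and 9.13 ± 0.69 in High and overlapped. The same UMIs chose these cells, which holds the values alike, so they do not measure level. At 5 or more, the groups did not overlap over all cells but did in cells with Krt13 below 3, where Low M3 (10.5%) lay above High F2 (10.2%). Superficial markers summed lower in High than in Low for the labels F2 and F6 and higher for M3 (15450 against 9788 CPM), and the part of cell make-up in these differences was not tested.

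Within cells that had 5 or more other members, each gene's share was set against S phase genes, which replicate DNA before mitosis. Cells with 2 or more of 29 S phase genes numbered 24 (Low F6) to 110 (High F6) per library, and the others 36 to 351, as medians over the genes. Ube2c was in 27.1% of the former and 50.0% of the latter, Cenpf in 14.4% and 29.5%, Tubb4b in 31.1% and 43.5%, and Cdc20 in 5.81% and 15.3% (means of libraries). These and Cks2, Cdca3, Prc1, Kif23, Kif2c and Ncapg were lower in the former in 6 of 6 libraries, 10 of the 53 genes. For rare genes such a difference can rest on single cells. Ncapg was in 1.16% and 2.58%, and Kif23 differed by only -0.035 percentage points in 1 library. Spc24 was the 1 gene of the 53 that was higher in 6 of 6, at 18.0% against 10.3%. The other 42 did not lie on 1 side in all 6 libraries. Among 9286 genes outside both lists, read in cells with 5 or more of the 53, 1.54% were lower and 1.26% higher in 6 of 6. All cells were at 1000 UMIs, and these shares are a description with no test.

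**Figure D5:**
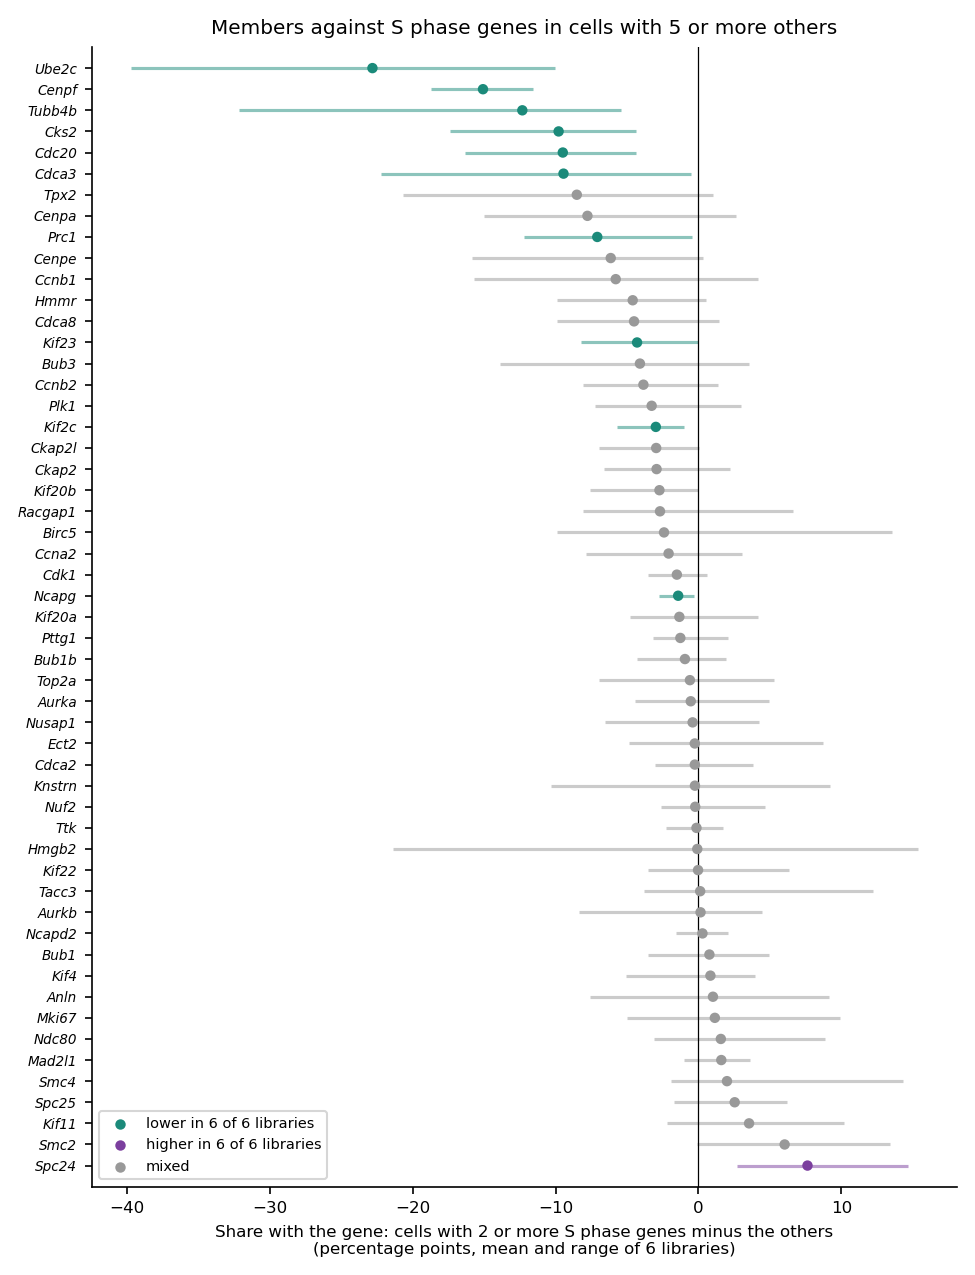
Share of cells with each gene among cells with 2 or more S phase genes minus the share among the others, in percentage points, both within cells that had 5 or more of the other members: points are means of 6 libraries and lines run from lowest to highest. Ube2c stands at -22.8 and Spc24 at 7.63.

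Of 92 further mitosis genes, 91 were tested between layers and 75 were lower and 6 higher in the upper layer, with a median of -0.87, where 30.8% of all genes were lower and 29.4% higher with a median of -0.04. Of 29 S phase genes, 27 were lower and 1 higher, with a median of -1.31. In the upper layer alone, 69 of the 92 mitosis genes and 26 of the 29 S phase genes reached the filter of 1 CPM in 3 libraries. The rest of those tested needed the lower layer to pass, so their calls are no support. The counts and medians between layers include such genes. Between High and Low, none of 89 mitosis genes tested and none of 29 S phase genes passed, with 78 and 28 positive estimates and medians of 0.48 and 0.41, against -0.02 over all genes.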

How the data were processed

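The deposited values were single-cell tables, 1 per library, holding natural log values which the authors made from UMIs scaled to 10000 per cell, as the values show. The submitters' processing notes name Cell Ranger 6.0.0, Seurat 4 and the builds mm10 and GRCm38. Inverting the log and dividing by the smallest value of a cell gave whole numbers (tolerance 0.001) for 100% of values. Cells with 500 or more non-zero genes were kept. Mitochondrial shares reached 10.0%, and no doublet caller was run. CPM was averaged over cells of a library, scaled with TMM factors, filtered at 1 CPM (0.5% of cells for shares) in 3 libraries, and tested as log2(CPM + 1), or log2(percent + 0.1), with limma 3.58.1 in R 4.3.3 and Benjamini-Hochberg adjustment over all genes. Differences between layers had the library as a block. Cells were thinned to 1000 UMIs with a fixed seed. On simulated data for the High against Low comparison over 11645 genes, 81 of 100 genes changed by 2 on the log2 scale and 95 of 100 changed by 3 were recovered, with 10 false calls. These changes exceeded every estimate of the 53 genes in that comparison (highest 1.30) and were planted only in genes above a minimum level. The check therefore does not tell how often smaller changes, or changes in lower genes, are missed. Its noise was drawn independently for each gene and no TMM scaling was run. The 10 false calls therefore do not measure those in libraries that shift together over many genes. Total UMIs per library ranged from 8457489 to 48957523. Deviations from the group mean over 8878 genes correlated at 0.76 (F2), 0.58 (M3) and 0.15 (F6) between libraries with the same label, all over 0.1, the threshold for taking the labels to pair the libraries. The main High minus Low tests left this pairing out, and it was fitted only as an alternative. The tests between layers took the libraries as independent of each other. The F6 pairing is weak, since Low F2 and High F6 correlated at 0.17. No sample columns were unused. All 53 members may be named. Full values were due for those past the threshold (at most 10 by smallest p) or, where none passed, the 5 with the smallest p, for 12 fixed regulators, and for the 3 highest and 3 lowest by level. Some of these are given with fewer values. The members and lists were chosen with earlier results of these data known. 3 libraries against 3 cannot reach an exact permutation p below 0.10. Promoter sequences are from RefSeq.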

Additional observations from a re-analysis of the deposited data

How the results depend on the processing

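The call counts of members between High and Low (mean CPM in all cells and in both layers, share, and level) were 0 in every alternative tried: leaving out each library, cells with 1000 or more non-zero genes, no filter, other added constants, plain CPM, summed UMIs, other Krt13 thresholds, other minimum numbers of members, and thinning. The fit with the replicate block, which pairs libraries by label, also called 0 members in each of these and changed no other member call, while over all genes it called 70 in place of 14 in mean CPM. Members with an unadjusted p under 0.05 numbered 31 in place of 27 in mean CPM over all cells. They numbered 31 in place of 20 below the Krt13 threshold, 9 in place of 7 above it, and 21 in place of 11 in share. In level there were 2 in both fits, and for the difference of layer differences 8 in place of 6. The same count over all genes was not made for this fit. For the difference of layer differences, leaving out a library gave 0 to 1 member. Between layers, 52 to 53 members were called in mean CPM and 46 to 53 in share. These counts include members that passed the filter through the lower layer alone. The level in cells with 5 or more other members is the least stable result: leaving out a library gave 0 to 3 calls, cells with 1000 or more non-zero genes 6, no filter 0, plain CPM 3, summed UMIs 3, a Krt13 threshold of 2 gave 0, and 3 or more other members 7. Some of these settings also changed which libraries held 20 such cells: the stricter gene minimum dropped High F6, and the Krt13 threshold of 2 and the 3 or more other members each added Low F6. The calls added were mostly of genes lower in the upper layer. The cause was not tested. That fit could not be run at a Krt13 threshold of 4 or with 8 or more other members, since only 2 libraries held enough cells. Tubb4b in High minus Low changed sign without Low F2 (-0.10), without High M3 (-0.49) and with summed UMIs (-0.022), with a range from -0.49 to 0.48 when each library was left out, and Pttg1 between layers changed sign with plain CPM (-0.011). Anln in High minus Low changed sign without Low F2 (0.06), without High M3 (0.13) and in cells with 1000 or more non-zero genes (0.33). Depth limits the shares of genes seen in few cells.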
